A study of Arabidopsis thaliana with 8 samples.

Results

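The histone variant H2A.Z was found in 30594 called regions of the nuclear genome in root epidermal cells of Arabidopsis thaliana that form no hairs (non-hair cells), and 4383 of them (14.3%) lay inside chromatin marked by trimethylation of histone H3 at lysine 27 (H3K27me3), the mark of Polycomb silencing. Regions were chosen by their measured overlap with other libraries. A region was counted as Polycomb-held when at least 50.0% of its length lay under H3K27me3 regions and no base lay under regions of H3K4me3 (trimethylation of H3 at lysine 4) or H3K27ac (acetylation of H3 at lysine 27), marks of active genes. The overlap with these 3 marks is therefore the choice itself and no finding. Of all H2A.Z regions, 9165 (30.0%) touched H3K27me3 and 6761 (22.1%) reached 50.0% of their length under it. Of those 6761 regions 2378 were left out for an active mark, 952 of them touching H3K4me3 and 2141 touching H3K27ac.

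Chromatin immunoprecipitation and sequencing (ChIP-seq) had 1 library for each of 6 targets, H2A.Z, H3K27me3, H3K4me3, H3K27ac, H3K4me1 (monomethylation of H3 at lysine 4) and H3, and 2 input samples whose values were not analysed here. Each library came from 1 stable line in the Col-0 background, with the biotin ligase BirA under the constitutive ACT2 promoter and the nuclear tag NTF under the GLABRA2 promoter, which is active in non-hair cells. Tagged nuclei were purified with streptavidin beads (INTACT) from 1.25 cm segments of the fully differentiated root zone, 10 days after germination, with root tips and lateral roots left out. The deposited values are positions of regions without heights, so sequencing depth is unknown and a wide region is not a measure of the amount of a mark.

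H2A.Z replaces H2A in some nucleosomes, mostly those just after the starts of genes, and in plants it is also found across the bodies of weakly expressed, inducible genes. H3K27me3 is written by Polycomb repressive complexes and covers developmental genes that are silent in a given tissue. Regions of the 2 libraries that coincide on the map may lie on the same nucleosome or in different nuclei, and this cannot be told apart with called regions.

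Sequences of Polycomb-held regions from 6 genes are shown because these genes stand for the groups described further on. AG (chr4:10384132-10384431, plus strand), an identity gene of stamens and carpels, is given as the middle 300 bases of the longest Polycomb-held region in any listed gene, inside an intron. FLC (chr5:3178986-3179277, minus strand), the repressor of flowering silenced by Polycomb after cold, is shown just after its start. STM (chr1:23060103-23060285, minus strand), which keeps the shoot meristem undifferentiated, is shown in its gene body. SHR (chr4:17692565-17692795, plus strand) patterns the root's inner layers, RSL4 (chr1:9655145-9655327, plus strand) drives root hair growth, and BG2 (chr3:21188794-21188976, minus strand) encodes a pathogenesis-related glucanase. Each is printed 5′ to 3′ in the direction of its gene, from the RefSeq genome TAIR10.1, whose nuclear coordinates are those of TAIR10. Capitals mark matches, on either strand, to CTCC, to the TATA motif TATAAA, to the G-box CACGTG, to the GA repeat GAGAGAGA or to the telobox AAACCCTA.
AG: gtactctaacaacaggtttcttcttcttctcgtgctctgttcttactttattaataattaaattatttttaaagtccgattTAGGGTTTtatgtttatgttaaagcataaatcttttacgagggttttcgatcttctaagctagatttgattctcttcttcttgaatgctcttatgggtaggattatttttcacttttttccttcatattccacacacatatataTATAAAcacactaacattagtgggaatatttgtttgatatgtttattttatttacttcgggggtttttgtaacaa
FLC: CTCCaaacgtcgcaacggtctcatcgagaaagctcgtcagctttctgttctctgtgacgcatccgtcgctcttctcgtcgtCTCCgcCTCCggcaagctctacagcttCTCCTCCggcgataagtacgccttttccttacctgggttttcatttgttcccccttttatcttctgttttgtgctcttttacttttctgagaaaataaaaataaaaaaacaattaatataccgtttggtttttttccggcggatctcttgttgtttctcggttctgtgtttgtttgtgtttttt
STM: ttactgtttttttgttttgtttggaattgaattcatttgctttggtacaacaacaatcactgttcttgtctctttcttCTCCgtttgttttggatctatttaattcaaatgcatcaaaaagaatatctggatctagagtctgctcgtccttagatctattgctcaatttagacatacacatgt
SHR: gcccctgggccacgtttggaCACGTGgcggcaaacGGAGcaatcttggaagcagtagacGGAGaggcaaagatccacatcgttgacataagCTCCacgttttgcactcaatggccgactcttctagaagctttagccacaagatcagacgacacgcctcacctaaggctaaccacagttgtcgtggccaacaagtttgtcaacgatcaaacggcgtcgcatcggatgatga
RSL4: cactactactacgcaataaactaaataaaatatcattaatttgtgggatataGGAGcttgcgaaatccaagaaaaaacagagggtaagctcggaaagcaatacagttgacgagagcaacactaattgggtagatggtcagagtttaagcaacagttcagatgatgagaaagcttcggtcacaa
BG2: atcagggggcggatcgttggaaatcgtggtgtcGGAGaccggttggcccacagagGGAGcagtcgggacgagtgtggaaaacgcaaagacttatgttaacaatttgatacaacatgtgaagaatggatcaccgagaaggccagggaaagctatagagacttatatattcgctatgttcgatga

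The AG stretch held a telobox and a TATAAA match and had 29.0% G and C, the SHR stretch a G-box and 3 CTCC matches at 52.8% G and C. FLC had 5 CTCC matches in 292 bp, STM and RSL4 1 each and BG2 2. Telobox and GA-repeat motifs are known in Arabidopsis as sequences bound by factors that recruit Polycomb complexes. Motifs were counted on both strands in regions of 183 bp, so that all sequences had the same length. None of the 5 motifs contains another. The telobox was found in 4.06% of Polycomb-held regions (95% interval 3.28% to 4.97%), against 5.48% of H2A.Z regions under active marks (4.78% to 6.24%), 1.99% of those touching no other mark (1.66% to 2.37%) and 3.51% of all H2A.Z regions of that length. The GA repeat was found in 4.60% of Polycomb-held regions, 6.55% of those under active marks, 3.30% of those without other marks and 4.54% of all. Over all locations both shares in Polycomb-held regions lay between those under active marks and those without other marks. In gene bodies the telobox share was 3.17% inside H3K27me3, 2.62% under active marks and 1.13% without other marks. Intervals inside H3K27me3 and under active marks overlapped (2.06% to 4.65% and 1.87% to 3.56%). The GA repeat kept its order there, with 2.92%, 3.43% and 1.93%. At centres of H3K27me3 regions free of H2A.Z and active marks the telobox share was 2.85% and the GA repeat share 3.47%.

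Over all locations TATAAA had the opposite order. It was present in 22.2% of Polycomb-held regions (20.5% to 24.0%), in 13.7% of those under active marks (12.6% to 14.8%), in 25.3% of those without other marks (24.2% to 26.4%) and in 20.0% of all H2A.Z regions of 183 bp. Near gene starts the shares were 24.3% inside H3K27me3, 12.9% under active marks and 26.3% without other marks. In gene bodies they were 19.5% (16.8% to 22.5%), 12.2% and 16.7% (15.0% to 18.4%). The share inside H3K27me3 was the highest there, but its interval overlapped the one without other marks. The median share of G and C in gene bodies was 39.9% inside H3K27me3, 39.3% under active marks and 38.8% without other marks. Centres of H3K27me3 regions free of H2A.Z and active marks held TATAAA in 27.8% of cases. CTCC was present in 67.1% of Polycomb-held regions and in 72.4% of those under active marks, and the G-box in 2.26% and 1.56%. A match says only that the letters occur in the window. Median G and C content was 37.7% in Polycomb-held regions and 39.3% under active marks, and its part in the TATAAA difference was not tested beyond the gene body values.

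Polycomb-held H2A.Z regions were short. Their median length was 183 bp (quartiles 183 and 291 bp), which is also the smallest size in the library, and 2217 of them (50.6%, 49.1% to 52.1%) had exactly that size. For comparison, 8198 H2A.Z regions had at least 50.0% of their length under H3K4me3 or H3K27ac and no base under H3K27me3, and 9095 touched none of H3K27me3, H3K4me3, H3K27ac and H3K4me1. Median lengths were 229 bp under active marks and 183 bp without other marks, with 47.7% and 67.9% at the smallest size and 52.7% among all H2A.Z regions. Lengths of 500 bp or more were reached by 145 Polycomb-held regions (3.31%), against 4.07% under active marks and 4.67% of all. In total, Polycomb-held regions covered 1108504 bp, 14.2% of the bases under H2A.Z, and their overlap with H3K27me3, 948074 bp, was 9.01% of the bases under that mark. The whole length lay under H3K27me3 in 2062 of them (47.0%). That share was 57.4% at the smallest size and 16.6% at 500 bp or more, as a long region needs a long stretch of H3K27me3 to be wholly under it.

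The 5 longest regions lay on different kinds of genes. The first, of 1056 bp (chr4:14455420-14456475), was centred 346 bp after the start of AT4G29370, a gene for a kelch repeat protein, with 82.01% of its length under H3K27me3. The second, of 1050 bp (chr1:23847237-23848286), lay on AT1G64260, annotated as a MuDR family transposase, and shared 776 bp with H3K4me1. GolS6, a galactinol synthase gene, held one of 995 bp (chr4:13290260-13291254) near its end. AT1G06320, which encodes an uncharacterized protein, held one of 972 bp (chr1:1930646-1931617), 732 bp of it under H3K4me1, and the protein kinase gene AT5G65530 one of 954 bp (chr5:26192287-26193240). At the threshold, regions with exactly 50.0% of their length under H3K27me3 included one of 384 bp upstream of AT1G77110, one of 258 bp in AT3G12915 and one of 332 bp in ABI3. Just outside were regions of 385 bp in NP2 (49.87%), 315 bp in PSAL (49.84%) and 281 bp in AT4G11950 (49.82%).

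Polycomb-held H2A.Z lay along the whole gene, whereas H2A.Z under active marks gathered at its start. Each region was placed by its midpoint, with a 5' zone reaching 500 bp to each side of a protein-coding start, a 3' zone equally wide around the gene's end, and the gene body between them. Intergenic positions up to 1000 bp from a gene were proximal and the rest distal. The 5' zone held 1341 Polycomb-held regions (30.6%, 29.2% to 32.0%), against 50.5% of those under active marks (49.4% to 51.6%), 30.2% of those without other marks and 36.1% of all H2A.Z regions. The 3' zone held 831 (19.0%, 17.8% to 20.2%), against 8.37% (7.78% to 8.99%) under active marks, 18.0% (17.2% to 18.8%) without other marks and 14.2% of all. Gene bodies held 1663 (37.9%), a share like the 37.8% under active marks and the 39.4% of all. Distal space held 245 (5.59%, 4.93% to 6.31%), against 1.28% (1.05% to 1.55%) under active marks, 9.21% without other marks and 4.54% of all. Proximal intergenic sequence held the other 303 (6.91%), against 2.10% under active marks, 11.3% without other marks and 5.83% of all. In 5' and 3' zones Polycomb-held regions were thus close to regions without other marks. These intervals cover counting error only, and with 1 library per target no difference had a replicate check.

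**Figure D1:**
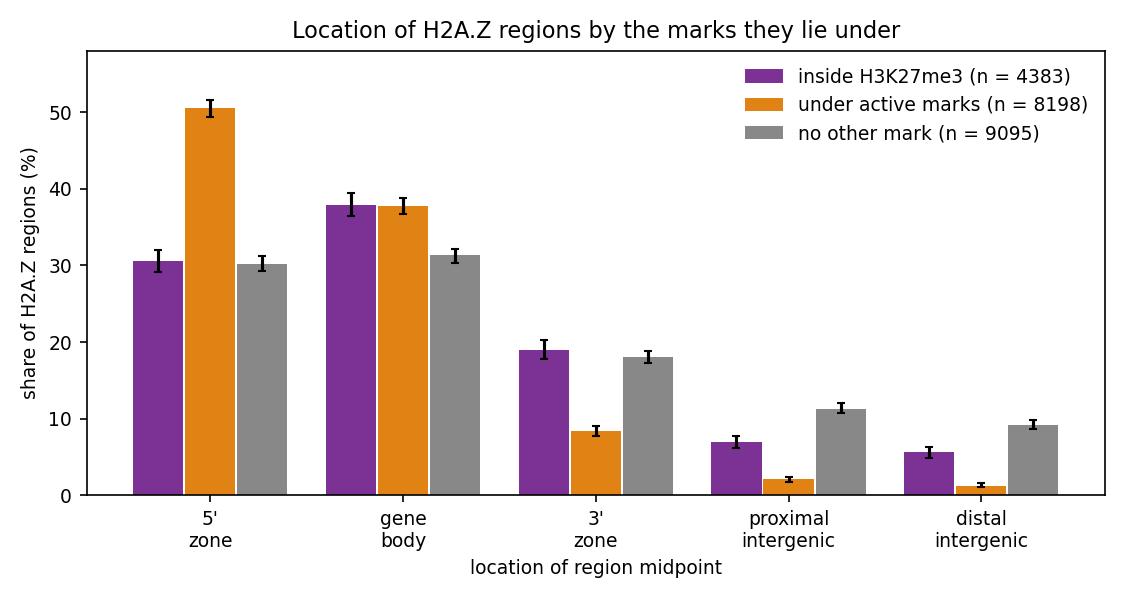
Share of H2A.Z regions (%, vertical axis) with their midpoint in each location class, for regions inside H3K27me3 (purple), under active marks (orange) and with no other mark (grey); bars carry exact 95% binomial intervals. The purple bar is below the orange one in the 5' zone (30.6% and 50.5%) and above it in the 3' zone (19.0% and 8.37%), and the gene body bars are level (37.9% and 37.8%).

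Within the 5' zone, 984 of the 1341 Polycomb-held regions (73.4%, 70.9% to 75.7%) had their midpoint after the gene start, against 89.0% under active marks (88.0% to 89.9%), 59.5% without other marks and 78.0% of all H2A.Z regions there. By annotated feature, 2195 Polycomb-held midpoints (50.1%) lay in coding sequence, close to the 51.0% under active marks. In 5' untranslated regions lay 5.34%, against 15.1% under active marks, 6.09% without other marks and 8.68% of all H2A.Z regions. In introns or other gene sequence lay 11.6%, against 20.6%, 12.8% and 16.6%. Both shares were thus close to those of regions without other marks. Outside any gene lay 23.5%, against 6.94% under active marks and 35.6% without other marks. Pericentromeric flanks of 3 Mb held 11.1% of Polycomb-held regions, 8.49% of those under active marks and 12.2% of those without other marks. They held 10.2% of all H2A.Z regions and 12.2% of all H3K27me3 regions. All 5 chromosomes had similar numbers for their length, from 34.3 Polycomb-held regions per Mb on chromosome 2 to 40.4 on chromosome 1, and 400 to 431 per Mb of H3K27me3.

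Positions were also scaled to gene length. Of the Polycomb-held regions, 3104 (70.8%) had their midpoint in a protein-coding gene, at a median position 46.1% of the way from start to end (quartiles 22.6% and 70.5%). Under active marks, 7332 regions had a median position of 20.9% (10.9% and 43.4%), and without other marks 5395 had a median of 46.9%. H3K27me3 regions free of H2A.Z and active marks had a median position of 48.6%, so a median near the middle of the gene was found in all 3 sets outside active marks. The first 20% of the gene held 22.1% of Polycomb-held regions and 48.5% of those under active marks. In genes of 1000 to 1999 bp the medians were 47.1% and 29.8%, in genes of 2000 to 2999 bp 43.9% and 20.7%, in genes of 3000 to 4999 bp 43.5% and 14.9%, and in genes of 5000 bp or more 45.4% and 7.87%. Under active marks the median moved towards the start as genes got longer, and inside H3K27me3 it stayed between 43.5% and 50.6% in all 5 length classes. In genes under 1000 bp the medians, 50.6% and 44.8%, lay closest together. The share in the first 20% of the gene did change with length inside H3K27me3. It was 18.7% in genes under 1000 bp and 33.3% in genes of 5000 bp or more. Without other marks these shares were 22.0% and 32.2%, and under active marks 17.0% and 72.9%.

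**Figure D2:**
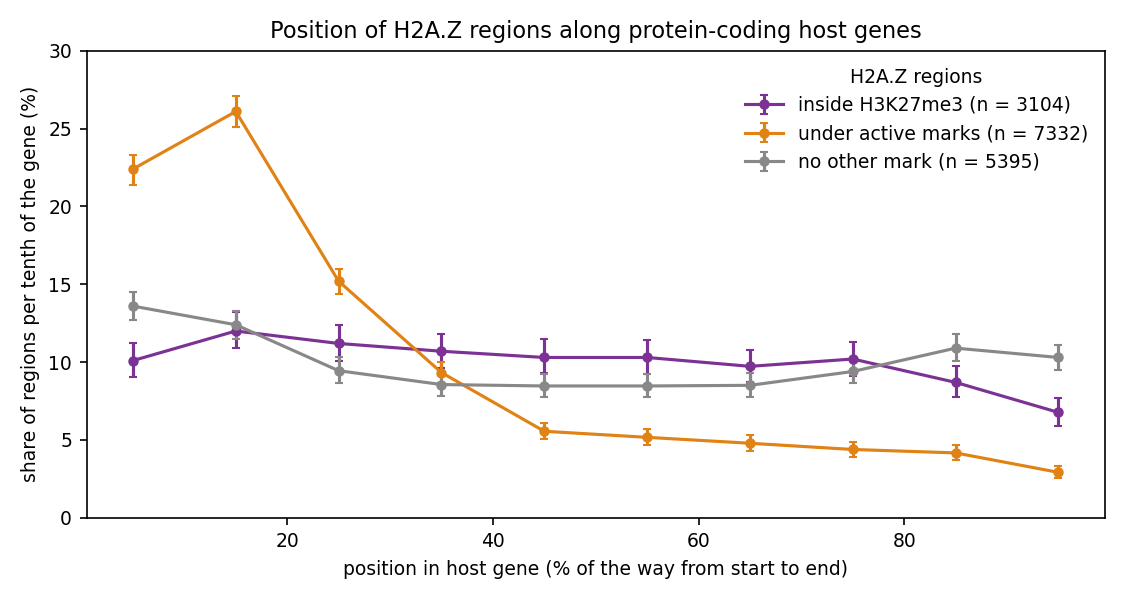
Share of H2A.Z regions (%, vertical axis) in each 10% step of their protein-coding host gene (horizontal axis, % of the way from start to end), for regions inside H3K27me3, under active marks and with no other mark, with exact 95% binomial intervals. The purple line is nearly level over most of the gene and lowest, at 6.77%, in the last step, the orange line reaches 26.1% in the second step and ends at 2.92%.

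To set aside how often each kind of chromatin occurs at each place, the share of bases under H2A.Z was taken within it. Of the 8848584 bases under H3K27me3 without active marks, 14.1% lay under H2A.Z, against 20.2% of bases under active marks without H3K27me3 and 3.99% of bases under neither. In gene bodies H3K27me3 chromatin (16.7%) and active chromatin (18.1%) came close, and in 5' zones they stood further apart (15.8% and 23.8%). In distal space the shares were 6.54% and 10.7%, against 1.77% of bases under neither. Around 5971 isolated starts, belonging to genes 2000 bp long or longer whose upstream 1000 bp were free of genes, H2A.Z in H3K27me3 chromatin also had its highest share after the start, 21.0% of bases between 200 and 400 bp. Active chromatin peaked at 26.6% between 300 and 400 bp. The share in H3K27me3 chromatin then stayed between 14.0% and 16.5% from 800 to 2000 bp, and upstream of the start it was 5.58% to 9.28%. Beyond 800 bp the lines for H3K27me3 and active chromatin crossed repeatedly. Active chromatin fell to 12.4% between 1100 and 1200 bp and returned to 17.0% between 1500 and 1600 bp. In H3K27me3 chromatin H2A.Z thus had both a peak after the start and a plateau along the body. Bases under neither also peaked after the start, at 14.8% between 400 and 500 bp. Their share was 2.40% to 3.37% upstream and 4.57% to 5.20% from 1100 to 2000 bp. A peak followed by a level stretch was thus not particular to H3K27me3 chromatin.

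**Figure D3:**
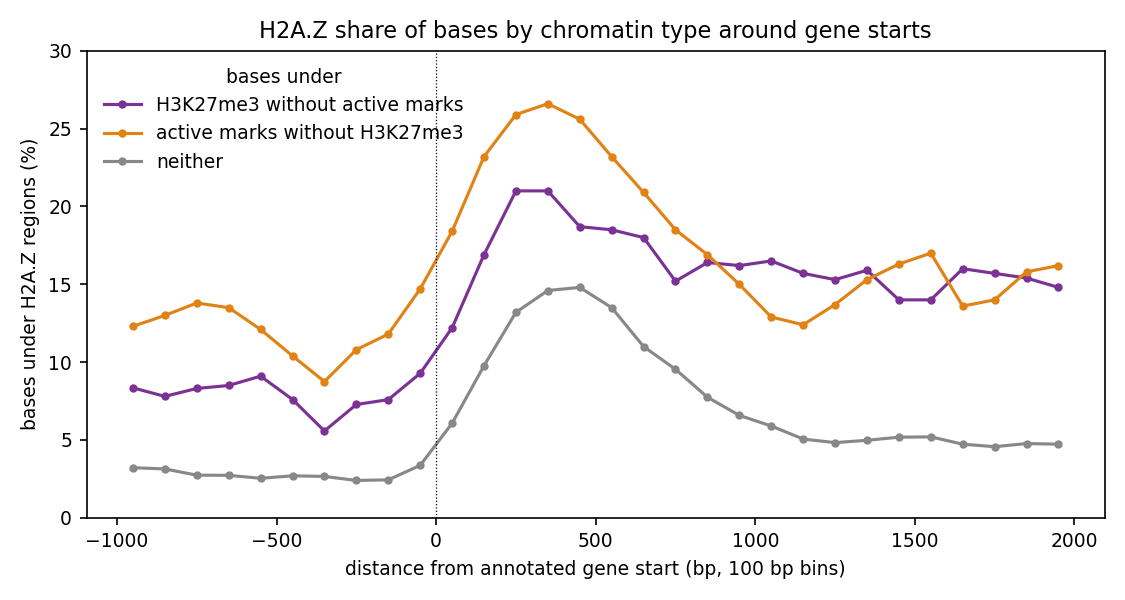
Share of bases under H2A.Z regions (%, vertical axis) in 100 bp bins from 1000 bp before to 2000 bp after 5971 isolated gene starts, for bases under H3K27me3 without active marks (purple), under active marks without H3K27me3 (orange) and under neither (grey). Purple and orange lines are highest 200 to 400 bp after the start, at 21.0% and 26.6%, and the purple line keeps 14.0% or more to 2000 bp.

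H3K4me1 and H3 took no part in choosing the regions. H3K4me1, which lies in the bodies of transcribed genes, touched 14.6% of Polycomb-held regions (13.5% to 15.7%), against 25.8% of those under active marks and 23.1% of all H2A.Z regions. Gene bodies showed the widest gap, with 21.7% (19.7% to 23.8%) against 42.2% (40.4% to 43.9%), and in 5' zones it was 10.1% against 14.0%. H3 regions touched 18.3% of Polycomb-held regions (17.2% to 19.5%), 24.2% of those under active marks, 9.19% of those without other marks and 19.9% of all. Among regions of 183 bp alone, to set length aside, H3K4me1 touched 9.52% of Polycomb-held regions, 20.6% under active marks and 17.5% of all. H3 touched 13.8%, 18.6% and 14.0% of the same sets, and 7.27% of those without other marks. At that size the H3 share of Polycomb-held regions was thus near that of all H2A.Z regions. Among Polycomb-held regions H3 was touched by 13.8% at the smallest size, 21.7% between that and 499 bp, and 41.4% at 500 bp or more. A longer region has more bases with which to touch another.

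H3K27me3 regions were also compared by whether they held H2A.Z. A Polycomb-held H2A.Z region overlapped 4278 of the 27784 H3K27me3 regions, and 14337 touched neither H2A.Z nor an active mark. Median lengths were 421.5 bp with and 241 bp without H2A.Z, and 24.0% and 52.3% were at the smallest size. The definitions fix part of this, as a longer region is more likely to be overlapped by H2A.Z and by active marks. With length held to 500 to 999 bp, 37.9% of those with (35.3% to 40.6%) and 27.9% of those without H2A.Z (25.8% to 30.1%) lay in gene bodies. Distal space held 5.55% with (4.38% to 6.92%) and 14.4% without H2A.Z (12.8% to 16.2%). H3 touched 27.8% and 13.3% of these, and H3K4me1 19.3% and 6.28%. Over all H3K27me3 regions of that length, 36.1% lay in gene bodies (34.6% to 37.5%) and 8.60% in distal space, 23.6% touched H3 and 15.8% touched H3K4me1. The gene body share with H2A.Z was thus near that of all H3K27me3 regions, and the set without H2A.Z or active marks stood lower. H3K27me3 regions with H2A.Z could touch active marks away from it, and those without were chosen to have none. Mappability and depth of the 2 libraries were not measured, and their part in this was not tested.

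Joining H3K27me3 regions no more than 500 bp apart gave 17982 domains, of which 3429 held Polycomb-held H2A.Z, 2703 of them 1 region, 721 between 2 and 4, and 5 domains 5 or more. A longer domain has more room, and 7.42% of domains under 500 bp held one, 43.4% of those of 1000 to 1999 bp and 89.8% of those of 5000 bp or more. Per base the trend levelled off. Of H3K27me3 bases without active marks, H2A.Z of any kind covered 10.7% in domains under 500 bp, 14.1% at 500 to 999 bp, 16.4% at 1000 to 1999 bp, 15.3% at 2000 to 4999 bp and 14.2% at 5000 bp or more. H3 regions covered between 5.48% and 6.10% of the same bases in all 5 classes. The domain with the most, 7 regions (chr3:5999639-6007742), spanned genes from AT3G17520 to AT3G17560, among them F-box protein genes. Another with 6 (chr3:16395420-16405092) lay over CHX11 and CHX10, genes for cation/H+ exchangers, and one more with 6 (chr1:27127120-27131398) over AT1G72100, a late embryogenesis abundant protein gene, and AT1G72110, an acyltransferase gene. Neighbouring Polycomb-held regions in the same gene, 671 pairs, had midpoints a median of 672 bp apart (quartiles 428.5 and 1083 bp).

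Polycomb-held H2A.Z was hosted by 2466 of 27444 protein-coding genes, 8.99% (8.65% to 9.33%), a gene being a host when it holds a midpoint. That is the background for the gene groups below. Since hosts must carry H3K27me3, a second background is used beside it, the 8129 genes with at least 200 bp of H3K27me3 outside active marks, of which 2418 (29.7%) were hosts. Most hosts, 1940, had 1 region, 428 had 2, 84 had 3 and 14 had 4, and a median of 14.6% of the gene was covered. Hosts were shorter than those of H2A.Z under active marks, with median lengths of 1930.5 bp (quartiles 1334 and 2797) and 2482 bp (1793 and 3439). They also had fewer exons, with medians of 3 and 5. All protein-coding genes had medians of 2078 bp and 4 exons. Genes with at least 200 bp of H3K27me3 outside active marks and no Polycomb-held region had 2091 bp and 4 exons, so hosts differed less from these. The share of genes that hosted a Polycomb-held region was highest, 11.6%, at 1000 to 1999 bp and 5.31% at 5000 bp or more. For H2A.Z under active marks it was 19.9% and 32.6% in the same classes, and went up with length throughout. H3K27ac of at least 200 bp was present elsewhere on 19.4% of hosts of Polycomb-held regions and 91.0% of hosts of the other kind, a contrast partly fixed by the choice. Both kinds were held by 165 genes, 6.69% of the hosts of Polycomb-held regions and 2.63% of the hosts of H2A.Z under active marks.

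Some hosts lay side by side. Of the 2466, 744 (30.2%) stood in 332 runs of at least 2 neighbouring protein-coding hosts, and the longest runs had 5. The next protein-coding gene along the chromosome was a host in 412 of 2465 cases after a host (16.7%), against 8.99% of all genes. Where the next gene had at least 200 bp of H3K27me3 outside active marks, it was a host in 36.8% of cases after a host (33.9% to 39.7%). After a gene with that much H3K27me3 that was no host, it was one in 32.2% (30.3% to 34.2%), so between genes with the mark the difference was small. One on chromosome 3, AT3G17530 to AT3G17570, held 7 regions on 4 F-box genes and a hydrolase gene. On chromosome 1, AT1G34480 to AT1G34520 held 7 regions, with 3 genes for membrane-bound O-acyl transferases, 1 for a peroxidase and 1 for a C1 domain protein. On chromosome 4, GH9B13 to ATPMEPCRB held 7 regions, with 3 genes of the pectin methylesterase inhibitor superfamily. Neighbours of this kind are often copies of one another, and reads that fit several copies can blur their regions.

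The gene with the most bases under Polycomb-held H2A.Z was VIN3, a Polycomb-associated PHD finger gene that is induced by prolonged cold and needed to silence FLC. Its 3 regions covered 1293 bp, 41.6% of the gene, of which 782 bp were 1 region in coding sequence (chr5:23247281-23248062). VIN3 carried 1707 bp of H3K27me3, and 487 bp of the long region also lay under H3K4me1. AT1G48800, a terpenoid cyclase gene, had 1289 bp in 4 regions, and NIG1, a bHLH transcription factor gene linked to salt signalling, had 1280 bp in 2, which covered 70.3% of its single exon gene. AT1G04150, a C2 domain protein gene, had 1223 bp. ABCG39, a transporter gene, had 1173 bp in 4 regions, all with midpoints within the first 30.9% of the gene. MEE57, a gene of the cytosine DNA methyltransferase family, had 1164 bp in 3. AT1G72110 with 1147 bp, the protease gene LON4 with 1141 bp, the protein kinase gene AT5G65530 with 1134 bp and the phospholipase C gene PLC8 with 1120 bp completed the first 10. Of these 10, NIG1 and AT1G48800 had no base of H3K4me3, H3K27ac or H3K4me1, and the other 8 had some. The largest number in any gene was 4 regions, found in 14 genes. Among them were AT1G48800, ABCG39, AT1G72110, AT3G21210, the disease resistance gene AT5G45200, FIS2, CHX11 and NAP12.

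Genes of embryo and seed were hosts in 8 of 12 cases (66.7%, 34.9% to 90.1%), against 8.99% of all genes, and 8 of the 11 with at least 200 bp of H3K27me3 outside active marks were hosts, against 29.7%. FIS2, a Polycomb subunit gene of the female gametophyte and endosperm, had 4 regions over 1054 bp. They lay 303, 677, 2569 and 3082 bp after the start by midpoint. The seed maturation regulator ABI3 had 495 bp in 2 regions near its 2 ends, FUS3 had 351 bp, LEC2 310 bp in 2, and the dormancy gene DOG1 285 bp. LEC1, MEA and the storage protein gene CRU3 had 183 bp each, 1 region of the smallest size.

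Root tip and vascular regulators were hosts in 10 of 17 cases (58.8%, 32.9% to 81.6%), and in 10 of the 16 with that much H3K27me3. SHR led with 749 bp in 3 regions inside the gene, and the gene maps show 1 more before its start and 1 after its end. SMB, a NAC gene of root cap maturation, had 345 bp in 2 regions towards its start, and its relative BRN2 had 183 bp in 1 region near its end. PLT2 and BBM, AP2 transcription factor genes of stem cells, had 278 and 160 bp, the phloem regulator APL 263 bp, and the xylem vessel regulators VND1, VND3 and VND7 183 bp each. MYB83, which turns on secondary walls, had 149 bp of a region that began before its start. The segments taken for these libraries left out the root tip and the nuclei were not from the vasculature.

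A meristem list of KNOX, WOX and CUC genes (KNOX and WOX meristem genes in the plot of shares) had 9 hosts among 18 genes (50.0%, 26.0% to 74.0%). All 18 had at least 200 bp of H3K27me3 outside active marks. CUC1, CUC2 and CUC3, which are neither KNOX nor WOX genes, were no hosts, so the 9 hosts were all KNOX or WOX genes. WUS, which maintains stem cells of the shoot, had 728 bp in 3 regions, KNAT2 667 bp in 3, WOX12 441 bp, WOX11 414 bp, WOX2 403 bp and STM 366 bp in 2. Flowering time and floral genes were hosts in 8 of 26 cases (30.8%, 14.3% to 51.8%), with 8 of 24 among those with H3K27me3, 33.3% against 29.7%. SEP3 had 807 bp in 3 regions and AG 628 bp in 1, wholly under H3K27me3 and centred 1426 bp after the start, in an intron. SHP2 had 411 bp, SEP2 341 bp, FUL 323 bp and FLC 292 bp, the last in 1 region centred 316 bp after the start, where an exon of a noncoding gene is annotated as well. AP1 carried 2492 bp and SVP 2610 bp of H3K27me3 and neither was a host. On FLC 3773 bp lay under H3K27me3, so H2A.Z covered a small part of the marked sequence there. Among H3K27me3 bases outside active marks, H2A.Z covered 10.0% on the floral list, 17.1% on KNOX, WOX and CUC genes and 19.2% on embryo and seed genes. It covered 15.0% on root tip and vascular regulators, 9.72% on root hair genes, 26.7% on stress genes and 17.5% over all protein-coding genes. Housekeeping genes had 33.3%, of only 384 bp, and the patterning genes of the epidermis none. Embryo and seed genes, with the largest share of hosts, thus lay above all protein-coding genes here. Stress genes, with few hosts, lay higher still, on 4456 bp. The order of the lists by hosts was therefore not their order by this share.

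**Figure D4:**
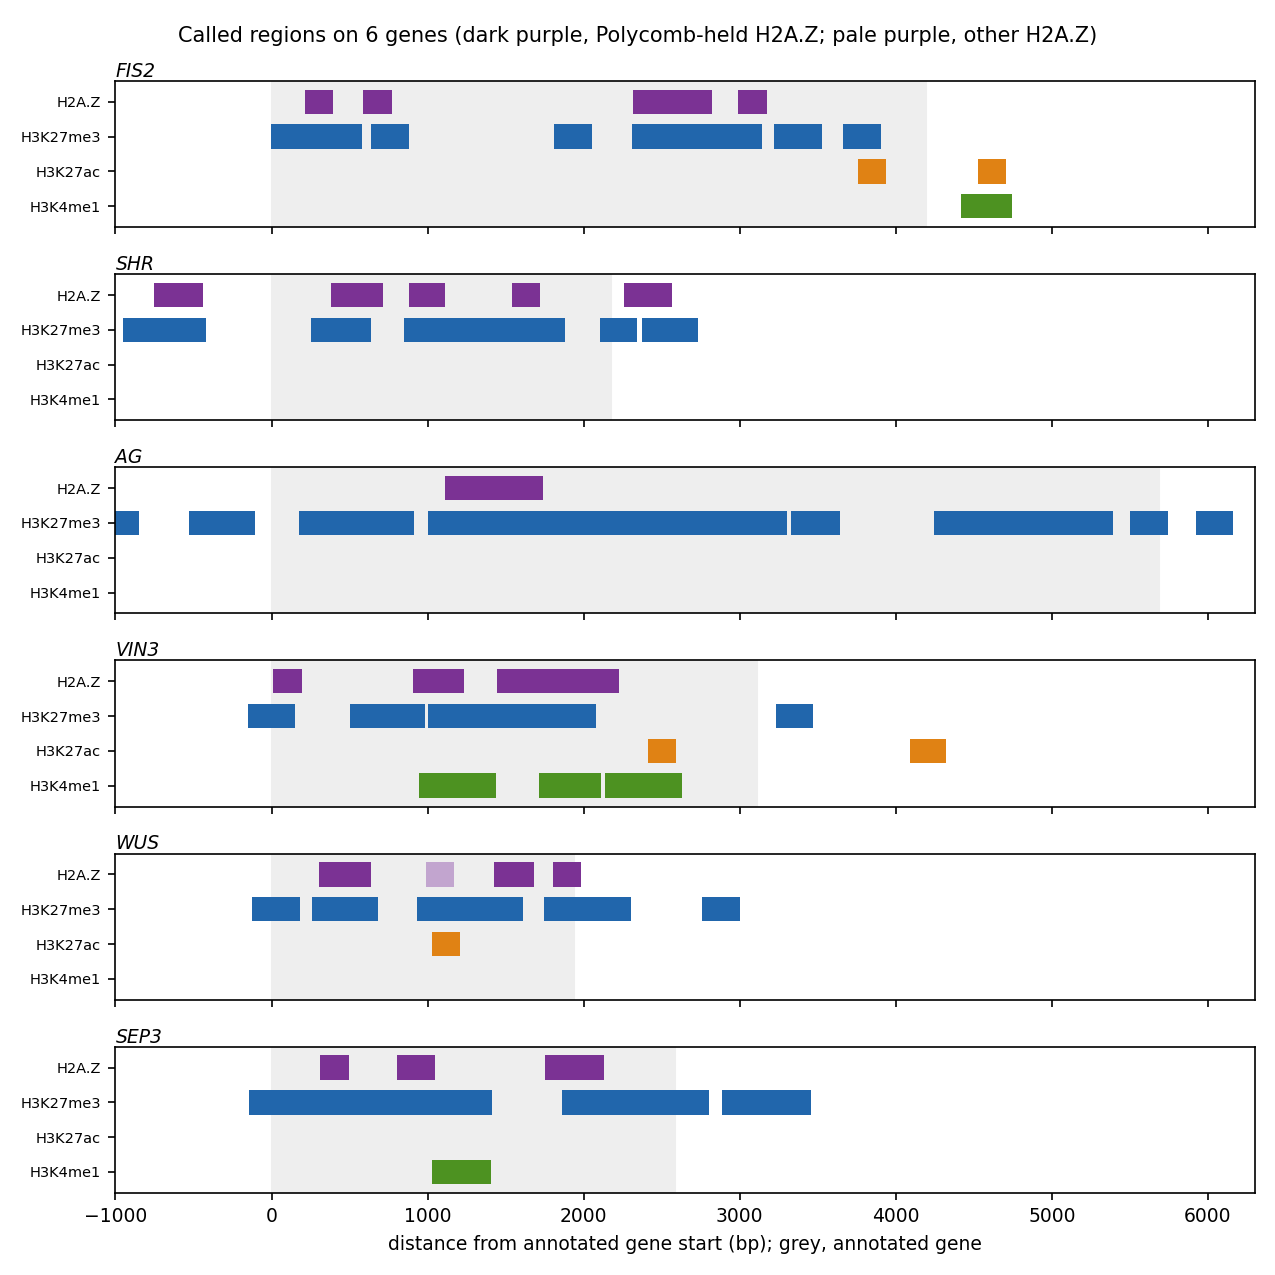
Called regions along FIS2, SHR, AG, VIN3, WUS and SEP3 (horizontal axis, bp from the annotated start, with the gene in grey), in rows for H2A.Z, H3K27me3, H3K27ac and H3K4me1; dark purple marks Polycomb-held H2A.Z and pale purple other H2A.Z. FIS2 has 4 dark regions and AG 1 of 628 bp; on VIN3 the region of 782 bp overlaps H3K4me1, and WUS has 1 pale region where H3K27ac was called.

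Genes of the epidermis made up 2 lists. Of 12 root hair genes, whose products act in the neighbouring hair cells, 2 were hosts (16.7%, 2.09% to 48.4%), RSL4 with 411 bp in 2 regions and COBL9, needed for tip growth, with 234 bp. RHD6, RSL1, RSL2 and PRP3 carried 1348, 800, 398 and 1016 bp of H3K27me3 and no Polycomb-held region. EXPA7, EXPA18 and PHT1;1 were no hosts either, with 482, 381 and 241 bp of the mark. Not every root hair gene carried it, as LRL3 and RBOHC lacked H3K27me3. On RBOHC active marks were called instead, H3K27ac over 402 bp and H3K4me3 over 189 bp. MRH1 was mostly under H3K27ac (1079 bp) among these 3 marks, with H3K27me3 over 307 bp. Of 10 genes of hair and non-hair patterning (non-hair fate genes in the plot of shares), none was a host (upper bound 30.8%), nor was any of the 4 with enough H3K27me3. CPC, TRY and ETC1 in that list encode small MYB proteins that favour hair fate, and the other 7 favour non-hair fate or act in non-hair cells. With so few genes, neither list can be told from the 8.99% of all genes. Of the 9 root hair genes with at least 200 bp of H3K27me3 outside active marks, 2 were hosts (22.2%, against 29.7% of all such genes). The genes that favour non-hair fate or act in non-hair cells were not alike in their marks. WER and TTG1, which specify these cells, had H3K27ac and no H3K27me3. GL3 and MYB23 had 241 bp of H3K27me3 each, beside 309 and 179 bp of H3K27ac. EGL3 had 311 bp of H3K27me3 and no H3K27ac or H3K4me3, and TTG2 had none of these marks. GL2 had 1311 bp of H3K27me3 beside 412 bp of H3K27ac and 378 bp of H3K4me3. GL2 supplied the promoter of the tag, and what its extra promoter copies add to the regions at this gene cannot be told apart. Stress and temperature response genes were hosts in 3 of 20 cases (15.0%, 3.21% to 37.9%), BG2 with 489 bp in 2 regions, COR15A with 252 bp and RD29B with 183 bp. Both of the last are genes of cold or dehydration. Of the 9 stress genes with at least 200 bp of H3K27me3 outside active marks, 3 were hosts (33.3%, against 29.7%). Of 14 housekeeping genes 1 was a host (7.14%), the tubulin gene TUB2. At least 200 bp of H3K27me3 lay on 7 of the 14, and only TUB2 had that much outside active marks. The choice against active marks thus limits this count by construction.

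Regions of the smallest size carried many of these hosts. Without such regions of H2A.Z (183 bp) and H3K27me3 (241 bp), 1170 protein-coding genes (4.26%) were hosts. Embryo and seed genes then gave 4 of 12 (33.3%) and root tip and vascular regulators 5 of 17 (29.4%). KNOX, WOX and CUC genes gave 7 of 18 (38.9%) and floral genes 4 of 26 (15.4%). Root hair genes kept their count of 2, and stress and housekeeping genes gave none of 20 and none of 14. Among the families MYB genes gave 17 hosts (13.5%) and ribosomal protein genes 5 (1.30%).

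Among gene families, taken from words in the RefSeq product names, transcription factors of the MYB type were hosts most often, 37 of 126 (29.4%, 21.6% to 38.1%, against 8.99% of all genes). MYB102 and MYB105 led, with 680 and 658 bp. AP2/B3-like genes followed with 10 of 39 (25.6%, 13.0% to 42.1%), led by ABI3 and NGA2 (474 bp). Homeobox genes came next with 22.3%, led by HB51 (843 bp) and HDG3 (804 bp, 4 regions), cytochrome P450 genes with 47 of 218 (21.6%), led by CYP702A8 (709 bp), and genes of pectin modification with 53 of 253 (20.9%), led by AT5G55720 (955 bp) and VGD1 (698 bp). MADS-box genes reached 20.8% and F-box genes 132 of 652 (20.2%), with AT1G32140 (938 bp) first. bHLH genes reached 18.9%, with ATMYC1, known from epidermal cell patterning, holding 752 bp in 4 regions. Peroxidase genes reached 18.8%, NAC genes 17.1%, receptor-like kinase genes 14.3% and disease resistance (NLR) genes 14.1%. WRKY genes (8.33%), SAUR genes (7.69%) and UDP-glycosyltransferase genes (7.63%) lay near the 8.99% of all genes. Ribosomal protein genes, 7 of 386 (1.81%, 0.732% to 3.70%), and pentatricopeptide genes, 9 of 282 (3.19%, 1.47% to 5.97%), lay below it.

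**Figure D5:**
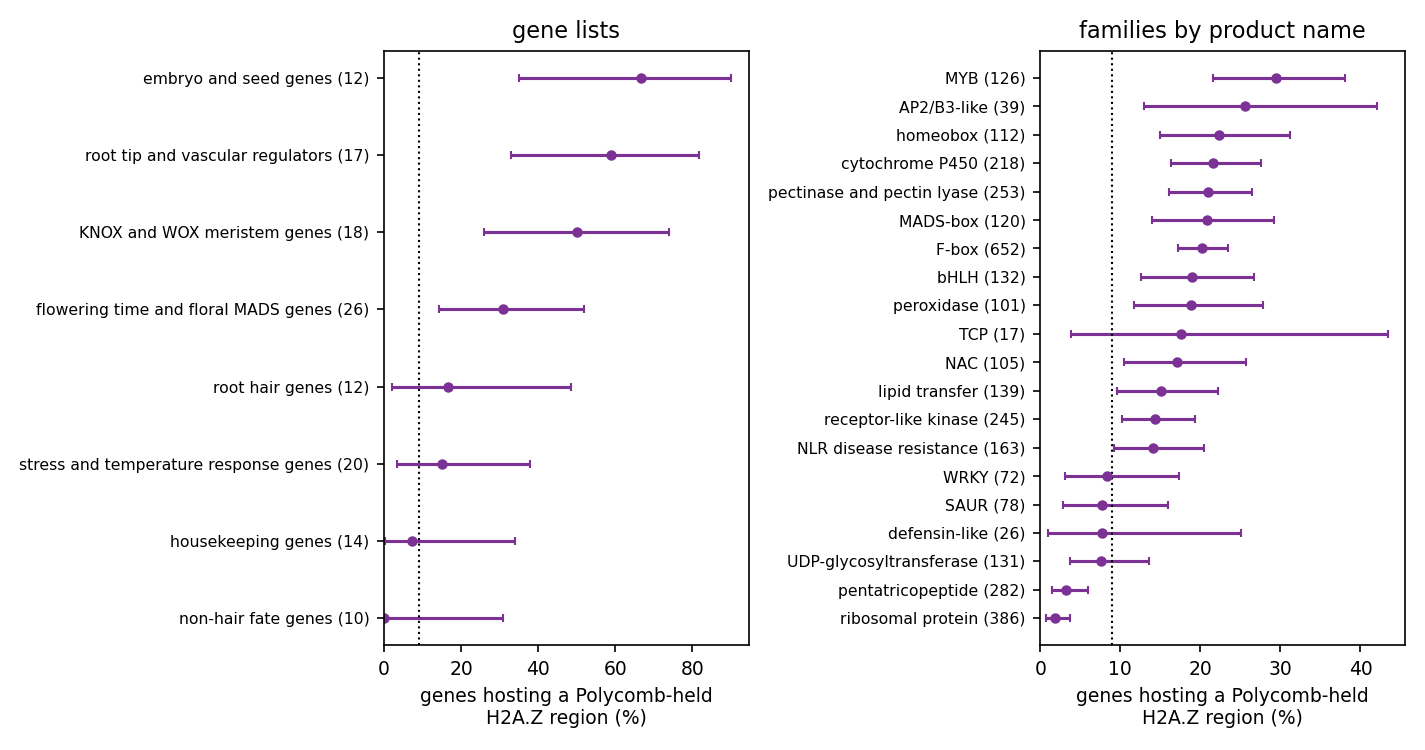
Share of genes hosting a Polycomb-held H2A.Z region (%, horizontal axis) in 8 gene lists (left) and 20 families (right), with the number of genes in brackets, exact 95% binomial intervals and the 8.99% of all protein-coding genes as a dotted line. Embryo and seed genes reach 66.7% and MYB genes 29.4%, ribosomal protein genes 1.81%.

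The counts were also taken among genes that carry the mark. Among genes with at least 200 bp of it outside active marks, hosts made up 10 of 20 AP2/B3-like genes (50.0%), 45.7% of MYB genes, 43.9% of bHLH genes and 37.8% of F-box genes, against 29.7% of all such genes. They made up 21.4% of UDP-glycosyltransferase genes, 6 of 33 WRKY genes, 15.9% of pentatricopeptide genes and 15.0% of ribosomal protein genes. Per base of that chromatin, H2A.Z covered 23.0% on F-box genes, 18.0% on MYB genes, 13.0% on homeobox genes and 9.89% on WRKY genes, against 17.5% over all genes, so homeobox genes were hosts often and had less of their H3K27me3 under H2A.Z. Members of a family can be near copies that share reads.

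Outside protein-coding genes, 80 Polycomb-held midpoints lay in pseudogenes (1.83%, against 1.44% of all H2A.Z regions). In long noncoding RNA genes lay 72 (1.64%, against 1.17% of all). Another 70 lay in transcribed pseudogenes, which with microRNA and other noncoding genes held 2.17%, against 1.94% of all. MIR169c and MIR2939 were the microRNA genes among them. The region on MIR169c (chr5:15870615-15870797) was wholly under H3K27me3. Away from genes, the longest distal region had 676 bp (chr2:17740888-17741563), all under H3K27me3 and 182 bp under H3, and lay upstream of AT2G42600, its nearest start.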

How the data were processed

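The deposited files list, per the file headers and names, HOMER regions, sorted and merged by the authors, as base-pair coordinates without score, count or signal, so depth per sample is unknown and precision cannot be derived from it. The submitters' processing notes name TAIR10, HOMER, deepTools 2.0, SAMtools 0.1.19 and Bowtie2. For the caller, its settings and control library were not given in the sources used here. H3K27me3 had an input of its own.

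Overlaps were counted by base on chromosomes 1 to 5 with Python 3.11.15, numpy 2.4.6, pandas 2.3.3 and scipy 1.17.1, checked on simulated regions. Genes, products and sequences came from RefSeq TAIR10.1 (37899 nuclear genes). A host holds a region's midpoint; member bases are counted inside the gene. Shares carry exact Clopper-Pearson 95% intervals, which cover counting error only. No test was made, since each target had 1 library; neighbouring regions are not independent.

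The regions, the 8 lists (129 genes, all matched) and the 20 families were chosen with earlier results of these data known. Named genes are the 10 hosts with most bases, the 5 longest regions, genes with most regions, up to 6 hosts per list and the top 2 per family; other named genes were chosen after their values were seen, as were the AG sequence, the 6 mapped genes and the condition that printed sequences hold no UTR base. Of each list the longest qualifying sequence of at most 300 bp was printed; that of the embryo and seed genes is not reported here.

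Alternatives changed the overlap asked for, the treatment of the smallest regions, the joining of H3K27me3, the zones and the centromere flanks.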

Additional observations from a re-analysis of the deposited data

How the results depend on the processing

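Of 53 values recomputed under 9 alternatives, 37 stayed within their interval, or within 1.5 times for counts, and 16 moved. Asking for the whole length under H3K27me3 left 2062 regions and 1266 host genes, and H3K4me1 touched 12.8%. Any base under H3K27me3 gave a median length of 228 bp. Without regions at the smallest size of H2A.Z and H3K27me3, 1724 regions in 1170 host genes remained, with a median of 293 bp, 32.6% in 5' zones, 40.4% in gene bodies, 3.89% distal, 23.7% touching H3 and 19.5% touching H3K4me1. With zones of 250 bp, 15.4% lay in 5' zones and 58.1% in gene bodies; with zones of 1000 bp, 58.1% and 13.9%, so these shares depend on the zone by construction. Allowing under 10% of active marks, joining H3K27me3, leaving out centromere flanks and counting hosts by any overlap moved none of the values recomputed for them. No paired analysis was possible because each target had 1 library, and for the same reason no library could be left out. Depth is unknown, so absence of a region does not show absence of the variant.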

Other observations

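Besides the 4383 Polycomb-held regions, 1473 H2A.Z regions touched H3K27me3 over less than 50.0% of their length and no active mark. Regions wholly under H3K27me3 and those only partly under it lay in like places, with 29.2% and 31.8% in 5' zones, 38.2% and 37.7% in gene bodies and 5.87% and 5.34% in distal space.

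Per location, H3K4me1 touched 21.7% of Polycomb-held regions in gene bodies, 15.0% in 3' zones, 10.1% in 5' zones, 3.63% in proximal and 2.45% in distal intergenic sequence. H3 touched between 10.2% (distal) and 20.7% (gene bodies). Among the TCP genes, TCP10 held 510 bp in 2 regions and BRC1, a gene that restrains shoot branching, 414 bp in 2.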
